A study of Mus musculus with 20 samples.

Results

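The binding of serum antibodies to blood group B glycans was examined in BALB/c mice, an inbred laboratory strain, on a printed glycan array. Of the 419 compounds printed on the array, 9 carried the complete B determinant, Galα1-3(Fucα1-2)Gal, without sulfate or sialic acid. All 9 were taken by this rule on structure, with earlier results of these data known. The sera came from untreated female and male mice, 10 weeks old and kept free of specific pathogens, with 1 serum on each array, and mice are named as in the labels (BALB/c-17 and so on). After incubation with serum diluted 1:15, bound IgM and IgG were detected together with a biotinylated antibody and Cy5-streptavidin, so the isotypes cannot be told apart. Of the 20 deposited arrays, those of BALB/c-44 and BALB/c-45, both female, were equal in 2664 of 2664 spots and were counted as 1 mouse, which left 12 females and 7 males.

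The B antigen is made when a galactose is added in α1-3 linkage to the H antigen, the Fucα1-2Gal end of many glycan chains, whereas addition of GalNAc at the same position makes the A antigen. The chain below this end, the core, comes in several types that differ in the inner sugar and its linkage. Type 1 and type 2 chains end in Gal linked to GlcNAc, type 3 chains are found on mucin-type O-glycans, and type 4 chains belong to the globo series of glycolipids. Natural antibodies, mostly IgM, are present without deliberate immunisation. Mouse cells, unlike human cells, carry the α-Gal epitope, which has the same Galα1-3Gal end without the fucose.

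The 9 glycans covered the determinant alone and 5 different chains, and the names given in the deposited table matched the structures. The determinant itself was printed as Btri (226), Galα1-3(Fucα1-2)Galβ-sp3, and as Btri-C8 (227), Galα1-3(Fucα1-2)Galβ-sp5, in which a longer spacer holds the same trisaccharide. All others were on sp3, a short aminopropyl spacer. B (type 1) (359) was Galα1-3(Fucα1-2)Galβ1-3GlcNAcβ-sp3 and B (type 2) (360) was Galα1-3(Fucα1-2)Galβ1-4GlcNAcβ-sp3, which differ from each other in the linkage to GlcNAc. B (type 3) (362) was Galα1-3(Fucα1-2)Galβ1-3GalNAcα-sp3 and B (type 4) (363) was Galα1-3(Fucα1-2)Galβ1-3GalNAcβ-sp3, which differ only in the anomer of GalNAc. BLeB (482), Galα1-3(Fucα1-2)Galβ1-3(Fucα1-4)GlcNAcβ-sp3, and BLeY (483), Galα1-3(Fucα1-2)Galβ1-4(Fucα1-3)GlcNAcβ-sp3, add a Lewis fucose to the type 1 and type 2 chains. Glycan 405 has no common name; its structure is Galα1-3(Fucα1-2)Galα1-4GlcNAcβ-sp3, and it differs from B (type 2) in the anomer of the inner galactose. None of the 9 was built on a type 5 or type 6 core.

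Signals are given in relative fluorescence units (RFU), as the median over the 6 spots of a glycan on an array, and 4000 RFU is the study's threshold for binding. Printing buffer alone gave from 93.5 to 2044 RFU over the 19 arrays, with a median of 578 RFU. By the ratio of a pair of printed peptides the arrays fell into 2 sets, which no label names and which were separated only once the values were known. Set 1 held 7 females and 2 males and had array medians of 126 to 412 RFU over all compounds, and set 2 held 5 females and 5 males, with array medians of 603 to 1504 RFU. Sex and set are therefore partly confounded, and values within sets are given where they bear on a result.

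Signals differed between the 9 glycans that carry the B determinant. B (type 3) was the brightest of the 9 glycans in 16 of 19 mice. B (type 2) and B (type 4) were intermediate, and each was bound in 6 mice at 4000 RFU. With a threshold of 2000 RFU their counts were 7 and 10 mice, and with 8000 RFU 3 and 1. The remaining 6 glycans were no brighter than the printing buffer in most mice. In all, 8 of the 9 glycans reached 4000 RFU in at least 1 mouse, against 54.9% of all 419 compounds, 3 did so in at least 5 mice, against 17.9%, and 1 had a median over mice above the threshold, against 8.11%. Of the 9, 3 were bound in exactly 1 mouse each, against 15.5% of all compounds. Of the 171 values for a B glycan in a mouse, 34 were at or above 4000 RFU, of which 27 were on set 2 arrays. No B glycan was bound in 5 mice, all of them on set 1 arrays. BALB/c-106, a male, bound 7 of the 9.

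**Figure D1:**
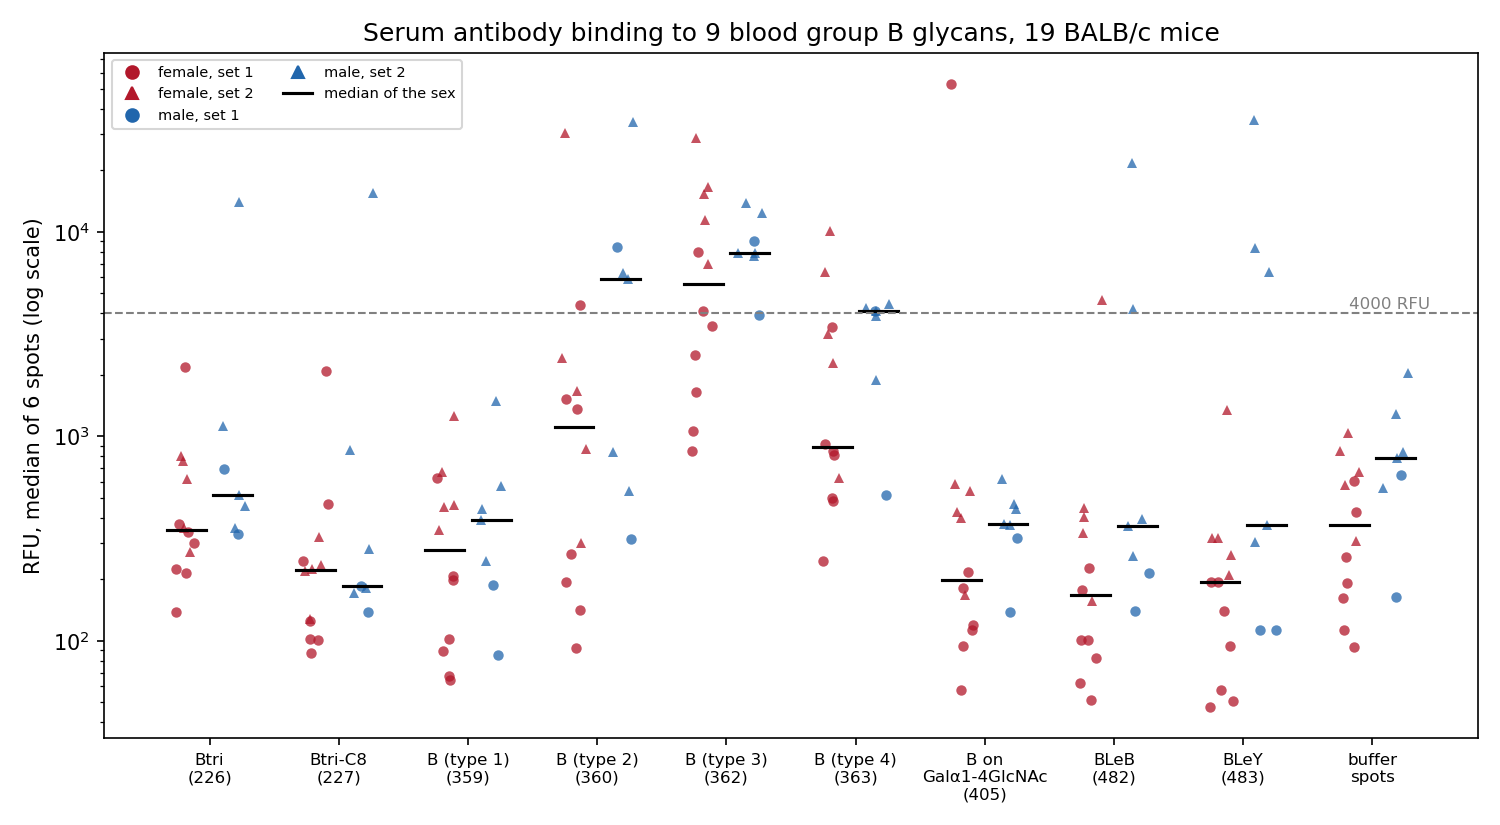
RFU (log scale, median of 6 spots) of the 9 blood group B glycans and of the buffer spots in each of 19 mice; colour gives the sex, the marker the set of arrays, and bars the median of each sex. B (type 3) lies between 845 and 28774 RFU and is bound in 13 of 19 mice, whereas B (type 1) stays below the dashed line at 4000 RFU in every mouse.

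The median signal of B (type 3) was 7864 RFU ± 4390 (MAD, n = 19), ranked 20 of 419 compounds by median, and was bound in 13 of 19 mice (68.4%, exact binomial 95% interval 43.4 to 87.4%). In females it ran from 845 to 28774 RFU with a median of 5540 RFU, and in males from 3934 to 13820 RFU with a median of 7910 RFU. The sexes overlapped over the whole range of the males, and the mice below the threshold were 5 females and 1 male. All 10 set 2 arrays were above the threshold, at 6956 to 28774 RFU, whereas set 1 arrays ran from 845 to 8994 RFU with 3 of 9 above it. Every serum exceeded the printing buffer of its array on this glycan, and the median MAD of the 6 spots was 1465 RFU. The highest value, that of BALB/c-87, came from widely scattered spots of 11480 to 61090 RFU, 1 of them holding saturated pixels.

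B (type 4), its β-linked isomer, reached a median signal of 2278 RFU ± 1762 (MAD, n = 19), with 6 of 19 mice bound (31.6%, interval 12.6 to 56.6%). Females ran from 245 to 10152 RFU with a median of 884 RFU, and males from 516 to 4418 RFU with a median of 4110 RFU. The sets of arrays also differed, with a median of 810 RFU and 1 of 9 mice bound on set 1 arrays against 3993 RFU and 5 of 10 mice on set 2 arrays. The highest values were those of 2 females, BALB/c-65 at 10152 RFU and BALB/c-88 at 6338 RFU, while 4 of the 7 males lay just above the threshold, between 4110 and 4418 RFU. All 6 mice that bound B (type 4) also bound B (type 3).

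B (type 2) showed the widest spread of the 3 bright glycans. Its median signal was 1357 RFU ± 1091 (MAD, n = 19), and 6 of 19 mice bound it, with the same interval as B (type 4). Females ran from 92 to 30547 RFU with a median of 1110 RFU, and males from 316 to 34528 RFU with a median of 5868 RFU. The bound sera were those of BALB/c-106 at 34528 RFU, BALB/c-87 at 30547 RFU, BALB/c-82 at 8413 RFU, BALB/c-104 at 6309 RFU, BALB/c-107 at 5868 RFU and BALB/c-42 at 4379 RFU, which are 4 males and 2 females. The remaining 13 mice did not exceed 2409 RFU, and in 5 mice the glycan did not exceed the printing buffer. The SD of log2 RFU within the sets of arrays was 2.32 for B (type 2), 1.21 for B (type 4) and 0.94 for B (type 3). All 6 mice that bound B (type 2) also bound B (type 3), and 3 of them bound B (type 4).

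The determinant without a core was bound by 1 serum. BALB/c-106 had 14002 RFU on Btri and 15436 RFU on Btri-C8, with spots of 9204 to 18298 RFU and 10627 to 19693 RFU. The next highest serum was that of BALB/c-42, at 2187 RFU on Btri and 2098 RFU on Btri-C8. Over all mice the medians were 371 RFU ± 146 (MAD, n = 19) for Btri and 218 RFU ± 91 for Btri-C8, and they did not exceed the printing buffer in 11 and 13 mice. Btri ran from 139 to 2187 RFU in females and from 334 to 14002 RFU in males, and Btri-C8 from 87.5 to 2098 RFU and from 138 to 15436 RFU, with the sexes overlapping apart from BALB/c-106. Each was bound in 1 of 19 mice (5.26%, interval 0.133 to 26.0%), and neither was bound in the 18 mice other than BALB/c-106.

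B (type 1) was the only B glycan that no serum bound. It ran from 64.5 to 1488 RFU with a median of 348 RFU ± 225 (MAD, n = 19), and the 0 of 19 mice allow a share of up to 17.6% at the exact 95% interval. Females had 64.5 to 1262 RFU and males 85.0 to 1488 RFU, and these ranges overlapped almost wholly. Its highest value, in BALB/c-106, was below that mouse's buffer spots at 2044 RFU, and in 15 of 19 mice it did not exceed the printing buffer.

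The glycans with a Lewis fucose were bound by a few sera of set 2. The median on BLeB was 226 RFU ± 139 (MAD, n = 19), and the bound sera were those of BALB/c-106 at 21626 RFU, BALB/c-88 at 4624 RFU and BALB/c-53 at 4195 RFU. The median on BLeY was 210 RFU ± 110 (MAD, n = 19), and the bound sera were those of 3 males, BALB/c-106 at 35430 RFU, BALB/c-107 at 8372 RFU and BALB/c-53 at 6340 RFU, whereas the highest female reached 1344 RFU. All set 2 arrays exceeded all set 1 arrays on BLeY (210 to 35430 RFU against 47.5 to 194 RFU), as they did for 20% of all compounds and for no other B glycan. Each of them stayed at or under the printing buffer in 14 of 19 mice. BLeB ran from 51.5 to 4624 RFU in females and from 140 to 21626 RFU in males, and BLeY from 47.5 to 1344 RFU and from 113 to 35430 RFU, so the sexes overlapped on both.

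Glycan 405 was bound by BALB/c-19 alone, a female of set 1, at 52770 RFU, with 6 spots between 41595 and 56447 RFU, 3 of them holding saturated pixels. The second highest serum gave 618 RFU, and in 16 of 19 mice the glycan did not exceed the printing buffer. The serum of BALB/c-19 gave 1357 RFU on B (type 2) and 2488 RFU on B (type 3). The highest of the 171 values was in a mouse that bound no other B glycan, and without BALB/c-19 the glycan was bound in 0 of 18 mice.

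**Figure D2:**
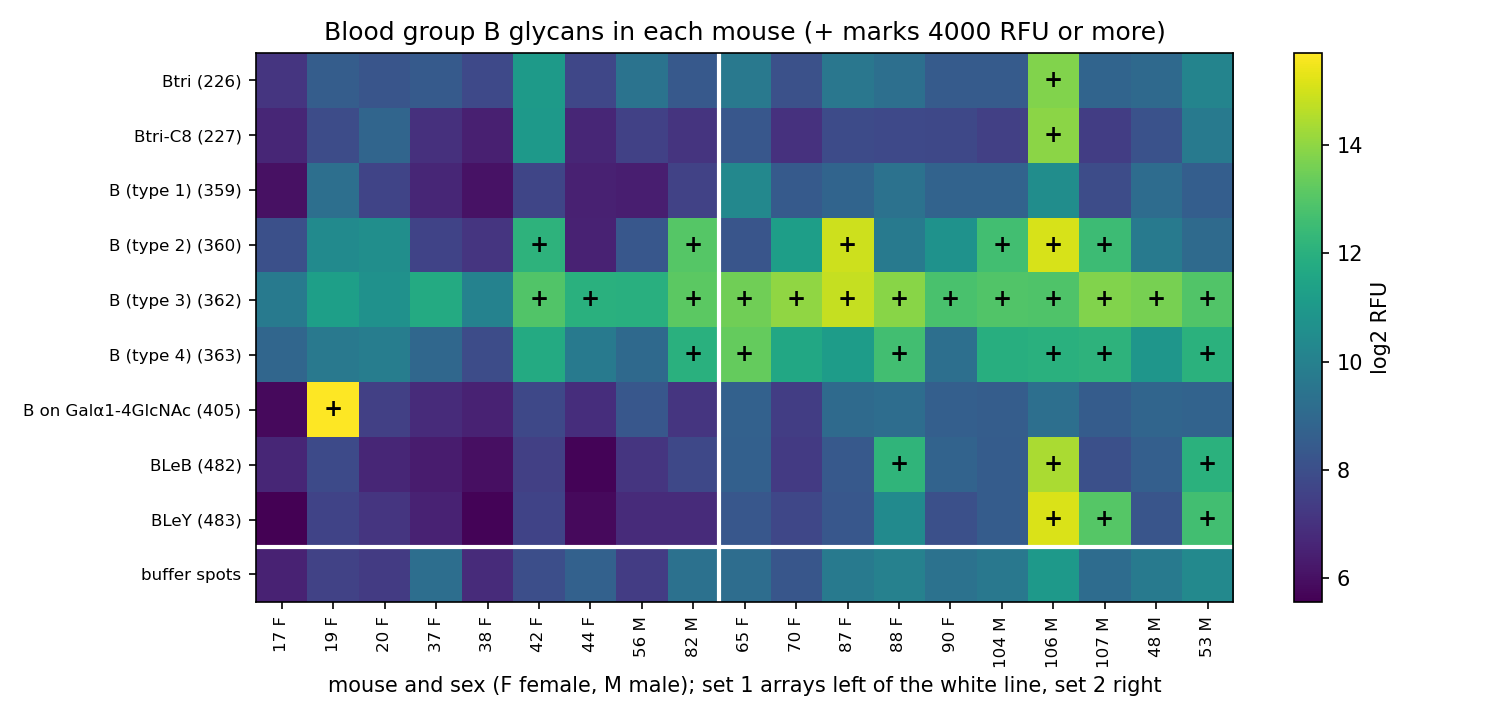
Log2 RFU of the 9 blood group B glycans and the buffer spots (rows) in each of 19 mice (columns, with sex), set 1 arrays left and set 2 arrays right of the white line; a plus sign marks 4000 RFU or more. The row of B (type 3) holds 13 plus signs, B (type 2) and B (type 4) 6 each, and the column of BALB/c-106 holds 7.

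BALB/c-106 had the highest signal on 6 of the 9 glycans. It bound the determinant alone, the type 2 chain with and without the Lewis fucose, and the type 1 chain with it, and had 1488 RFU on B (type 1) and 618 RFU on glycan 405. On B (type 3) it had 7596 RFU, the sixth highest of its own 9 values and close to the median of the males, and on B (type 4) 4111 RFU. This array also had the highest buffer spots, and 87 of the 419 compounds reached 4000 RFU on it, of which 12 did so in no other mouse. Without this mouse, Btri and Btri-C8 were bound in 0 of 18 mice, BLeB and BLeY in 2, B (type 2) in 5, B (type 4) in 5 and B (type 3) in 12.

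To compare cores within the same sera, the difference in log2 RFU was taken within each mouse for all 36 pairs of B glycans and for 24 pairs of a B glycan with a structural partner. A signal under the median of the printing buffer of its array was raised to that level, so a difference is a lower bound where the dimmer glycan lay there. Differences were tested with a permutation test of 100000 sign flips (two-sided, n = 19 mice, Benjamini-Hochberg over all 60 pairs), and 20 of the 36 pairs of B glycans passed. The lowest unadjusted p was 2e-05, which was 0.00013 after adjustment and lies near the limit of the resampling. All of the 20 pairs involved B (type 2), B (type 3) or B (type 4). B (type 3) was higher than each of the 8 others. B (type 2) and B (type 4) were each higher than 6 others and lower than B (type 3).

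The type 3 and type 4 chains differ in the anomer of GalNAc, and B (type 3) was brighter than B (type 4) in 19 of 19 mice, by 1.76 in mean log2 RFU (95% interval 1.29 to 2.24, adjusted p = 0.00013, permutation test), which is 3.4-fold. The difference was 1.72 on set 1 arrays and 1.80 on set 2 arrays. The type 1 and type 2 chains differ in the linkage to GlcNAc, and B (type 2) exceeded B (type 1) by 1.75 (interval 0.87 to 2.64, adjusted p = 0.0014, permutation test), and B (type 1) was the brighter in 1 of 19 mice. B (type 3) exceeded B (type 2) in 17 mice, by 1.83 (interval 0.99 to 2.66, adjusted p = 0.0013, permutation test). The mean levels of B (type 2) and B (type 4) were not told apart, with a difference of -0.07 whose interval of -0.94 to 0.80 still allows either to be the brighter.

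A Lewis fucose on the type 2 chain went with a lower mean signal over mice, but not in the 3 sera that bound BLeY. BLeY was below B (type 2) by 1.36 (interval 0.41 to 2.31, adjusted p = 0.013, permutation test), with B (type 2) brighter in 14 of 19 mice, although the difference was 1.85 on set 1 arrays and 0.92 on set 2 arrays. It was 1.75 in females and 0.69 in males, and BLeY did not exceed the printing buffer in 14 of 19 mice. Of the sera that bound BLeY, BALB/c-106 had 35430 RFU on it and 34528 RFU on B (type 2). BALB/c-107 had 8372 against 5868 RFU, and BALB/c-53 had 6340 against 542 RFU. On the type 1 chain the difference between B (type 1) and BLeB was -0.23, with an interval of -0.77 to 0.28 and neither above the printing buffer in 11 mice. The 3 sera that bound BLeB were each brighter on it than on B (type 1). The values were 21626 against 1488 RFU in BALB/c-106, 4624 against 672 RFU in BALB/c-88 and 4195 against 388 RFU in BALB/c-53. Glycan 405, with the inner galactose in α form, was below B (type 2) by 1.44 (interval 0.28 to 2.57, adjusted p = 0.038, permutation test), and this call was lost in 12 of 28 other settings. The spacer was tested with the determinant alone: Btri was brighter than Btri-C8 in 17 of 19 mice, but by 0.20 only with signals raised to the buffer (interval -0.03 to 0.45, adjusted p = 0.24, permutation test). With the values as measured, set to at least 100 RFU, that difference was 0.90 with an adjusted p of 0.000225 (permutation test), so the call depended on how signals under the buffer level were treated. The density of printing can differ between glycans and was not measured in the files.

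Among the 24 structural pairs, 12 passed the same test. The A form, with GalNAc in place of the terminal Gal, was compared with the B form for 8 chains, and 1 pair passed. With signals as measured, set to at least 100 RFU, 3 of the 8 passed, since BLeB then exceeded ALeB (484) by 1.01 (adjusted p = 0.0023, permutation test) and glycan 405 exceeded its A form (402) by 1.02 (adjusted p = 0.00013, permutation test). The same 3 passed with signals raised to the negative control. B (type 4) was below A (type 4) (437), the brightest A glycan compared, by 3.79 (interval 2.78 to 4.79, adjusted p = 0.00013, permutation test) and in 18 of 19 mice. The median on A (type 4) was 26032 RFU with 17 mice bound, and 42 of its 114 spots held saturated pixels, so the difference is compressed in the brightest sera. The exception was BALB/c-82, a male with 4110 RFU on B (type 4) and 3014 RFU on A (type 4). No A glycan with a type 3 core was found among the printed compounds.

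On the type 2 chain the A and B forms were not told apart over all mice. B (type 2) minus A (type 2) (368) was 0.26 (interval -0.34 to 0.89, adjusted p = 0.56, permutation test), with B brighter in 12 of 19 mice. Both mice that bound A (type 2) also bound B (type 2): BALB/c-87 had 21982 RFU on A (type 2) and BALB/c-82 had 7309 RFU. The others of the 6 mice that bound B (type 2), BALB/c-104, BALB/c-107, BALB/c-42 and BALB/c-106, did not bind A (type 2). Among these, BALB/c-106 had 34528 RFU on B (type 2) and 721 RFU on A (type 2). For the 6 dim B glycans the A forms were dim as well, with differences from 0.03 to 0.54, and in 10 to 16 of 19 mice neither glycan of such a pair exceeded the printing buffer. Atri (235), the A trisaccharide, was bound in 1 mouse, BALB/c-44 at 4772 RFU, in which Btri had 214 RFU.

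**Figure D3:**
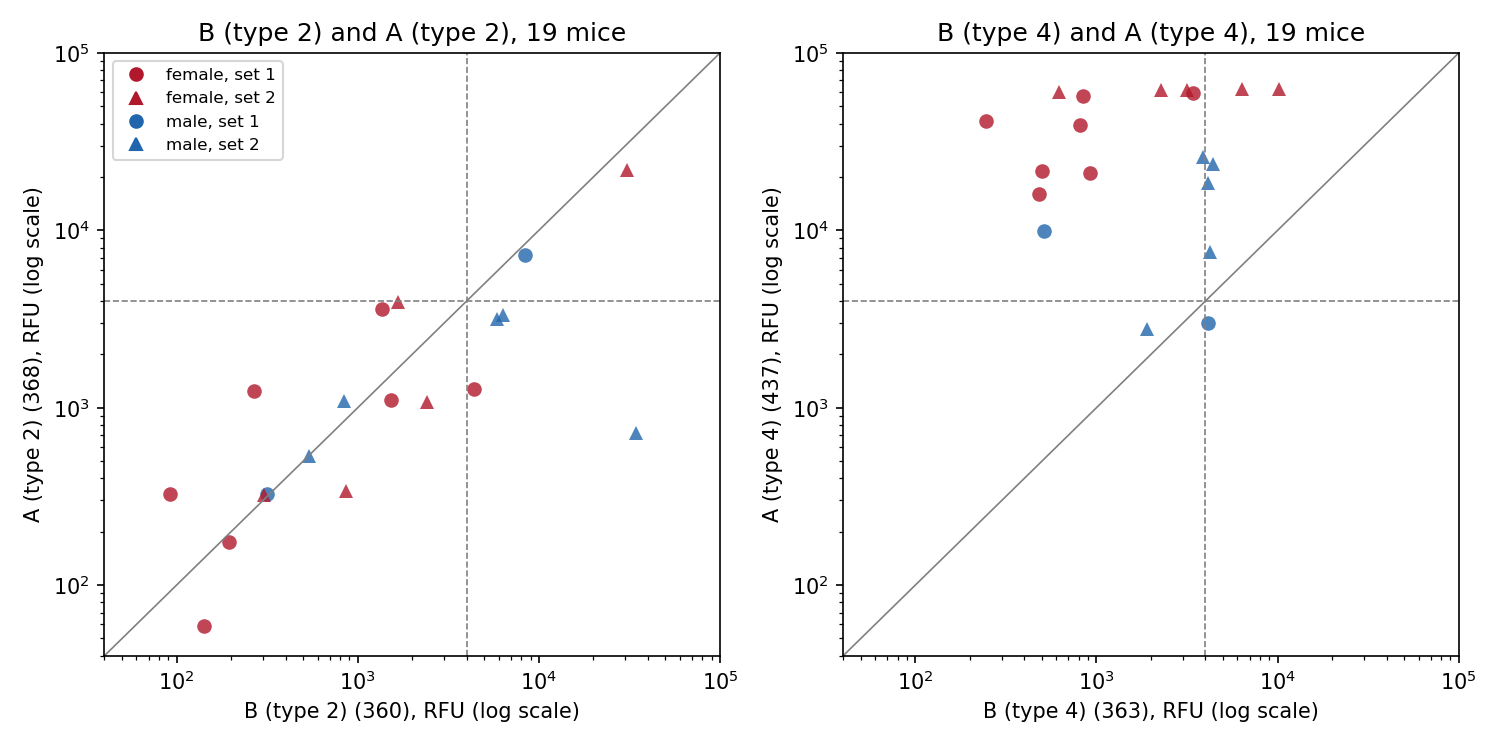
RFU of B (type 2) against A (type 2) (left) and of B (type 4) against A (type 4) (right) in 19 mice, on log scales, with the diagonal in grey and 4000 RFU dashed; colour gives the sex and the marker the set of arrays. The type 2 values scatter about the diagonal apart from BALB/c-106, and the type 4 values lie above it in 18 mice, with the females at 15952 RFU or more on A (type 4).

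The H glycans, which lack the terminal Gal, differed in signal from their B forms in both directions. B (type 3) exceeded H (type 3) (217), with a median of 2562 RFU, by 1.20 (interval 0.66 to 1.72, adjusted p = 0.0013, permutation test), and all 6 mice that bound H (type 3) also bound B (type 3). On set 1 arrays this difference was 0.83 and did not pass, with an adjusted p of 0.14 (exact permutation test). H (type 2) (216), with a median of 8718 RFU and 16 of 19 mice bound, exceeded B (type 2) by 2.29 (interval 1.11 to 3.48, adjusted p = 0.0024, permutation test). H (type 1) (215) exceeded B (type 1) by 1.82 and LeY (372) exceeded BLeY by 1.61, with adjusted p of 0.0002 and 0.012 (permutation test). The pair of BLeB and LeB (371) and that of Btri and Hdi (71) did not pass, with differences of 0.31 (interval -0.14 to 0.80) and -0.13 (interval -0.68 to 0.43). The sera with the highest signals on H (type 2), BALB/c-88 at 34352 RFU and BALB/c-53 at 34052 RFU, were also the highest on LeY, at 18856 and 16055 RFU, and are the same mice that bound BLeB beside BALB/c-106.

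Removal of the α1-2 fucose gives linear chains that end in Galα1-3Gal. On the type 2 chain this is the α-Gal epitope, Galili (tri) (222), which ran from 108 to 1031 RFU and was bound in no mouse. B (type 2) exceeded it by 1.76 (interval 0.87 to 2.65, adjusted p = 0.0022, permutation test), and was the brighter in 14 of 19 mice. αGalLeX (364) did not differ from BLeY past the threshold, at 0.33 (interval -0.30 to 1.02), nor Bdi (76) from Btri, at 0.01 (interval -0.46 to 0.50). With the terminal Gal moved from α1-3 to α1-4 linkage, glycan 365 was below B (type 2) by 1.60 (interval 0.76 to 2.44, adjusted p = 0.0018, permutation test). It was bound in 1 mouse, BALB/c-82 at 11610 RFU, which had 8413 RFU on B (type 2).

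Against the bare chains, without both residues, 3 B glycans were higher and 2 were lower. B (type 3) exceeded the TF disaccharide (89), which no serum bound, by 3.69 (interval 3.25 to 4.12, adjusted p = 0.00013, permutation test) in 19 of 19 mice. B (type 2) exceeded N-acetyllactosamine (97) by 1.73 and B (type 4) exceeded Tββ (88) by 1.12, with adjusted p of 0.0016 and 0.012 (permutation test). LeX (234), the bare chain of BLeY, gave a median of 9476 RFU and lay 3.80 above it (interval 2.72 to 4.85, adjusted p = 0.00016, permutation test), and Galβ-sp3 lay 2.93 above Btri (interval 1.97 to 3.89, adjusted p = 0.00013, permutation test). BLeB and LeA (233) did not pass, at 0.37 (interval -0.05 to 0.82).

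**Figure D4:**
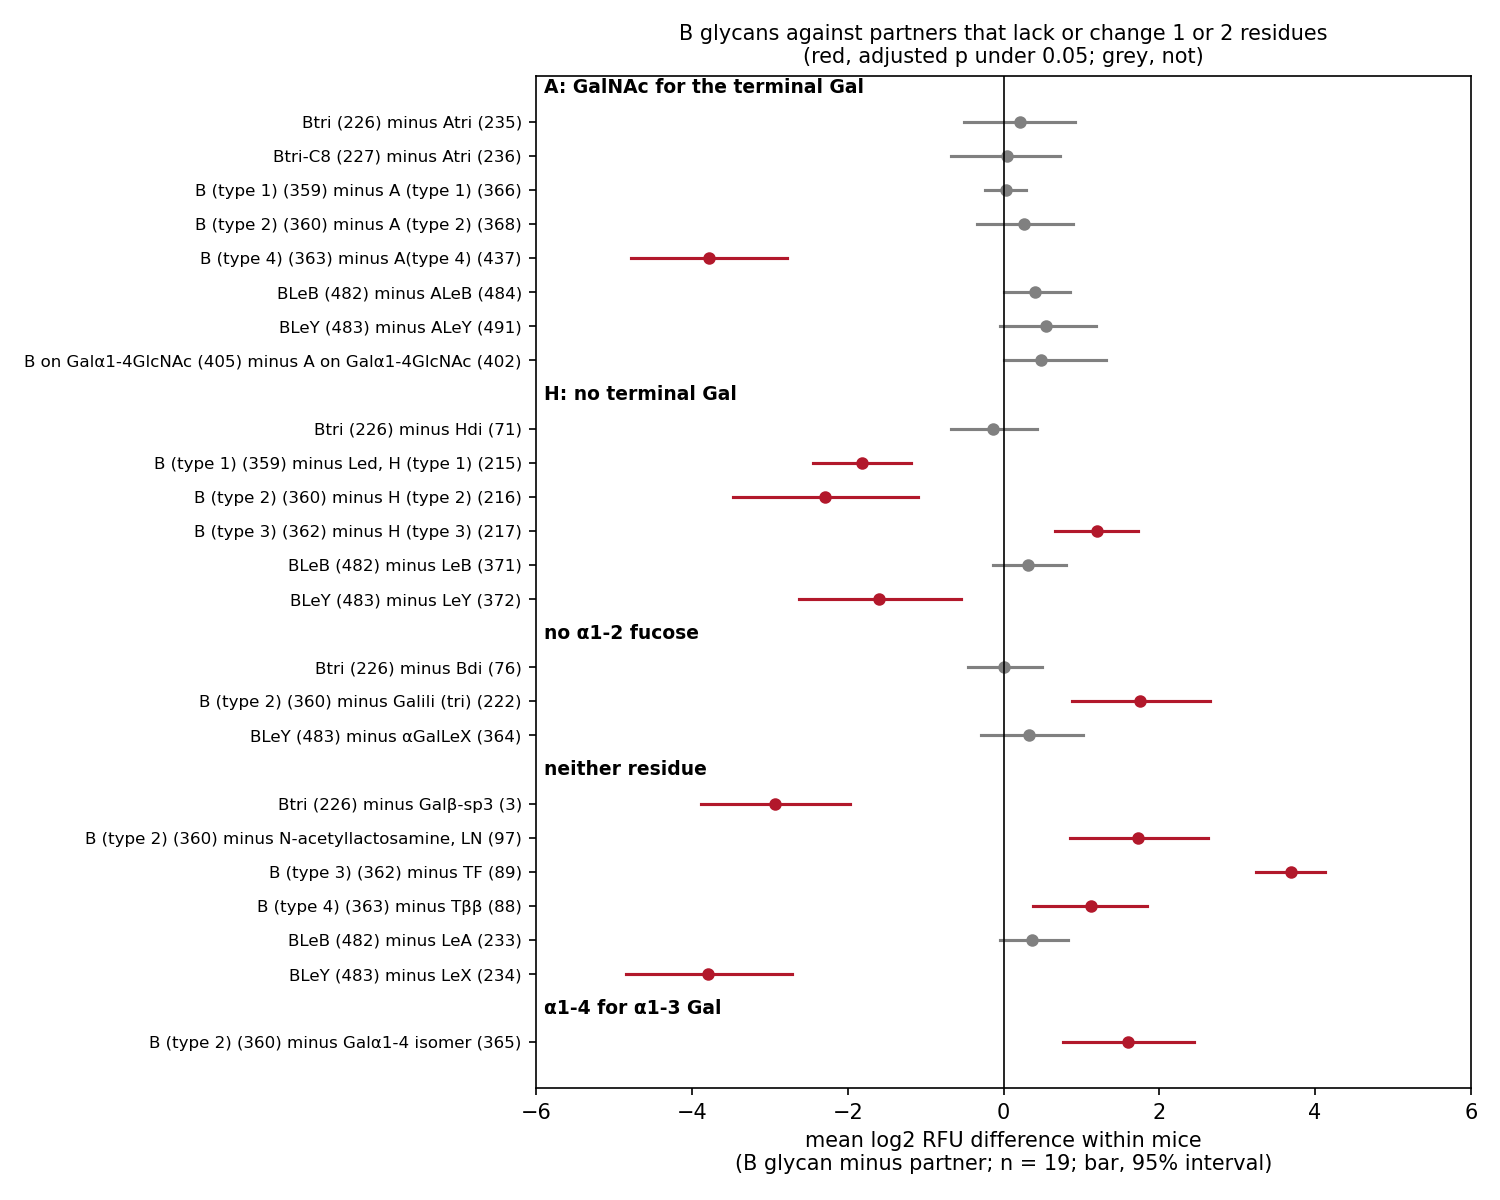
Mean log2 RFU difference within mice between a B glycan and its structural partner for 24 pairs, with 95% intervals from sign flips (n = 19 mice); red marks an adjusted p under 0.05. The pairs with A (type 4) and LeX lie furthest to the left, at -3.79 and -3.80, and that with TF furthest to the right, at 3.69.

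No B glycan passed the test for a difference between the sexes in limma fitted across all 419 compounds on log2 RFU set to at least 100, in which 1.67% of compounds passed at an adjusted p under 0.05 (1.43% lower and 0.239% higher in females). With the set of arrays as a term, 0 of the 9 passed, against 0.477% of all compounds. All 9 had a lower mean in females, as had 91.9% of all compounds, and under quantile normalization 6 of the 9 did, with B (type 1), B (type 3) and glycan 405 turned. The largest difference was that of BLeY, with a mean log2 RFU different by -2.53, female minus male (SE 0.91, limma, unadjusted p = 0.010, adjusted p = 0.18), and it was the 1 B glycan at an unadjusted p under 0.05, against 17.4% of all compounds. The exact permutation test over 50388 assignments gave p = 0.018 for it, with an interval of -4.72 to -0.43. With the set of arrays as a term the difference was -1.76 (limma, adjusted p = 0.41), and without BALB/c-106 it was -1.71 (limma, adjusted p = 0.41). For B (type 3) the difference was -0.74 (SE 0.64, limma, adjusted p = 0.44), for B (type 2) -1.70 (SE 1.05, adjusted p = 0.35) and for B (type 4) -1.03 (SE 0.74, adjusted p = 0.39). With the exact test, the interval of B (type 3) was -2.12 to 0.63, so that these numbers of mice leave room for a higher level in either sex.

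The differences between cores were also compared between the sexes. Of the 36 pairs of B glycans, 0 passed (exact permutation test, two-sided, Benjamini-Hochberg over the 36) and 4 were at an unadjusted p under 0.05, all of them pairs with BLeY. B (type 3) exceeded B (type 4) by 1.86 in females and 1.60 in males. Among the 24 structural pairs, a family taken up after the values were seen, 1 passed. B (type 4) minus A (type 4) was -4.95 in females and -1.79 in males, a female minus male difference of -3.16 (interval -4.60 to -1.72, exact permutation test, p = 0.00022, adjusted p = 0.0052). It was -3.51 on set 1 arrays (7 females and 2 males, exact permutation test, p = 0.056, the smallest possible being 0.028) and -2.55 on set 2 arrays (5 females and 5 males, exact permutation test, p = 0.016). A (type 4) ran from 15952 to 62566 RFU in females and from 2770 to 26032 RFU in males, whereas the mean of B (type 4) was lower in females without passing the test. All 42 saturated spots of A (type 4) were in females, in 11 of 12 mice, and 0 of the 42 spots of males were saturated, so the level of A (type 4) is a lower bound in the females in which most of the 6 spots were saturated.

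Whether the same mice bound the different cores was examined with rank correlations of log2 RFU over mice for the 36 pairs. Over all 19 mice, 29 pairs passed (Spearman, permutation test with 100000 resamples, Benjamini-Hochberg), but ranks within the 2 sets of arrays left 15. None of the 15 involved B (type 2) or B (type 3), and 1 involved B (type 4), with BLeY. The other 14 were among the 6 dim glycans. Spearman's rho of these 6 with the printing buffer was 0.53 to 0.88 on set 2 arrays and 0.10 to 0.37 on set 1 arrays, whereas that of B (type 3) was 0.85 and that of B (type 4) 0.60 on set 1 arrays, against -0.24 and 0.05 on set 2 arrays. The part of the buffer level in the correlations was not tested. Btri and Btri-C8, which share the trisaccharide, had Spearman's rho of 0.73 and Pearson's r of 0.84 on set 1 arrays and 0.93 and 0.98 on set 2 arrays. Ranked within sets, rho was 0.85 (permutation test, p = 2e-05, adjusted p = 0.00072), and Pearson's r of values centred within sets was 0.94 (permutation test, p = 3e-05, adjusted p = 0.0011), and 0.66 without the 2 mice farthest from the median. For B (type 3) and B (type 4), r was 0.80 and rho 0.77 on set 1 arrays, where both also ranked with the buffer, against 0.14 and 0.12 on set 2 arrays, and the rank correlation within sets did not pass (rho 0.39, permutation test, adjusted p = 0.22).

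For the 3 B glycans bound in at least 5 mice, the printed glycans with the most similar pattern over mice were listed by Spearman's rho after centring within the sets of arrays, among 404 glycans and without a test. The closest to B (type 2) was A (type 2), the same chain with GalNAc, at 0.76, followed by a pair of sulfated and sialylated lactosamines, 320 at 0.75 and 319 at 0.70, which were bound in 10 and 7 mice. The closest to B (type 3) were Galβ1-3GlcNAcα1-3Galβ1-3GlcNAcβ-sp2 (399) at 0.75, 3-O-Su-GalNAcβ-sp3 (38) at 0.71 and Pk (223), the globo trisaccharide, at 0.71, which was bound in 0 mice. The closest to B (type 4) were Galβ1-3GalNAcβ1-3Gal-sp4 (262) at 0.74, LeY(hexa) (497) at 0.73 and the ganglioside sugar GD2 (531) at 0.71, of which 262 and GD2 were bound in 0 mice. None of these 9 glycans holds the B determinant.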

How the data were processed

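Per the file headers and the study's methods, the authors scanned each array with 1 laser and 1 gain and quantified spots with ScanArray Express. For each spot the authors deposited the pixels' mean intensity (linear scale), a local background, their difference, and how many percent of pixels were saturated. A deposited series table pairs an intensity in RFU with a count of animals reaching 4000 RFU. The headers list a normalization, but no scaling between arrays was seen in the values, and the software's build was not given in the sources used here.

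RFU of a mouse was the median of 6 spots with background left in. The array shared by BALB/c-44 and BALB/c-45 was counted once. Log2 differences within mice were tested by sign flips, after signals below the buffer median were raised to it. Sexes were compared with limma 3.58.1 (trend) in R 4.3.3 on all 419 compounds, with values set to at least 100 RFU, and with exact permutation tests. Adjusted p-values follow Benjamini and Hochberg, and shares of mice carry exact binomial 95% intervals, which cover counting error only. Spots flagged as not found, 3.83 to 51.3% of an array, were kept. The number of arrays limits the precision. Steps were tested on simulated data. Other steps ran in Python 3.11.15 with SciPy 1.17.1, NumPy 2.4.6 and pandas 2.3.3, and plots in matplotlib 3.10.9.

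All B glycans and their listed structural partners are named, with the 3 most similar glycans of each B glycan bound in at least 5 mice. The glycans, pairs and tests were chosen with earlier results of these data known. Alternatives covered the mean of spots, background subtraction, quantile normalization, other floors, thresholds of 2000 and 8000 RFU, log2(RFU + 500), the set as a term, each set alone, the identical arrays, spots not found and leaving out each mouse.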

Additional observations from a re-analysis of the deposited data

Results flagged for a closer look

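In males, BALB/c-106 lay far from the other 6 on 6 of the 9 B glycans, where its gap to the next male was 0.65 to 0.95 of the range of the males. These 6 values come from 1 serum on 1 array, over skewed signals that are correlated between glycans, so they are not separate cases and no rate expected by chance is given. Its values were 14002 RFU on Btri, with the next male at 1129 RFU, 15436 RFU on Btri-C8 (next 862), 34528 RFU on B (type 2) (next 8413), 21626 RFU on BLeB (next 4195) and 35430 RFU on BLeY (next 8372). On B (type 1) it had 1488 RFU (next 574), which is below the buffer spots of its array, at 2044 RFU, the highest of the 19 arrays. Females, a group of 12, were not examined for such values.

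The difference between B (type 4) and A (type 4) itself differed between the sexes, with a female minus male value of -3.16 on the log2 scale (adjusted p = 0.0052, exact permutation test). Over 8 other settings it ran from -3.31 to -2.70. Its values on each set of arrays are given with the comparison of the sexes. All 42 saturated spots of A (type 4) were in females.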

How the results depend on the processing

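Glycans were compared within mice, whereas females and males are different animals and were compared without pairing. Of the 32 pairs called, 0 changed direction under any of 28 other settings and 12 were called in all of them. The count of pairs of B glycans was 20 and fell to 11 on set 2 arrays alone, and that of structural pairs was 12 and fell to 7 on set 1 arrays alone, where fewer mice enter. With either other floor, 22 and 14 pairs were called. Leaving out each mouse gave 19 to 21 and 12 pairs, and 0 sex differences among the B glycans. Btri minus glycan 405, not called, changed sign to -0.070 on set 1 arrays and to -0.034 without spots not found, and ran from -0.026 to 0.54 when single mice were left out, with 0.54 without BALB/c-19 (adjusted p = 0.028, permutation test). Values at or above threshold numbered 34, 7 on set 1 arrays alone and 17 at 8000 RFU. Correlations called numbered 29 by Spearman, 15 ranked within sets, and 7 by Pearson centred within sets. Of the 36 pairs of B glycans, 0 differed between the sexes past the threshold, but 5 with the mean of the 6 spots; the cause was not tested. These settings for correlations and for sex by pair were chosen after seeing the data. Most dim B glycans lay at or below the buffer level, so their order is not resolved.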

Other observations

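The series table labels its intensity as a median over animals, and this value was within 5% of the mean over the 20 arrays for 86.6% of 418 matched compounds, and within 5% of the median over arrays for 8.85%. For B (type 2) the table gives 5071 RFU as the authors' value, where the 20 arrays have a mean of 5032 RFU and a median of 1110 RFU. For glycan 405 it gives 2929 RFU, beside a mean of 2925 RFU and a median of 343 RFU.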
